A study of Mus musculus with 18 samples.

Results

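The 10 Wnt ligand genes *Wnt2b*, *Wnt3*, *Wnt3a*, *Wnt4*, *Wnt5a*, *Wnt5b*, *Wnt7a*, *Wnt7b*, *Wnt8b* and *Wnt9a* were followed through 18 RNA-seq libraries of newborn mouse brain in 4 tables. Members were found by gene name, and each had 1 entry of its own in every table, which makes 10 of the 23138 named genes of the *Kdm2b* hippocampus table, of 23398 in neurospheres and of 54429 in the cortex and *Rnf2* tables, whose annotation is wider. At postnatal day 0, hippocampi of 3 control (Kdm2bfl/+ or Kdm2bfl/fl) and 3 *Kdm2b* Emx1-delta-CxxC cKO mice were profiled, along with hippocampal neurospheres of 2 and 2 and cortices of 2 and 2 of the same genotypes, and hippocampi of 2 control (Rnf2fl/+ or Rnf2fl/fl) and 2 *Rnf2* Emx1-cKO mice. The *Kdm2b* allele lacks the floxed exon that encodes the CxxC zinc finger, a domain that binds unmethylated CpG-rich DNA, and *Rnf2* encodes Ring1B, the ubiquitin ligase of PRC1. Emx1-Cre recombines in dorsal telencephalic progenitors and their descendants, so that interneurons, vessels, meninges and blood in the tissue keep an intact allele. The labels pool heterozygous and homozygous floxed controls, which were therefore kept together, and neurospheres were grown from newborn hippocampi in medium with FGF2 and EGF. The labels do not say which libraries came from separate litters or cultures, so p-values measure the spread between these libraries.

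Wnt ligands are secreted, lipid-modified glycoproteins that bind Frizzled receptors on nearby cells. Canonical ligands act with LRP co-receptors to stabilize β-catenin and switch on TCF/LEF target genes, whereas non-canonical ligands act mainly through ROR, RYK and the planar polarity pathway. In the embryonic forebrain the cortical hem, a signaling center beside the future hippocampus, secretes Wnt ligands, *Wnt2b*, *Wnt3a*, *Wnt5a* and *Wnt8b* among them, and hippocampal progenitors depend on canonical Wnt signals. *Wnt2b*, *Wnt3*, *Wnt3a*, *Wnt7a*, *Wnt7b*, *Wnt8b* and *Wnt9a* were set apart as 7 canonical ligands and *Wnt4*, *Wnt5a* and *Wnt5b* as 3 non-canonical ones. This division is a convention, since several ligands can act either way depending on the receptors present.

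Because the deleted domain binds CpG-rich DNA, the sequence before the starts of 4 ligands is shown with each CpG dinucleotide in capitals. They are the 250 bases upstream of the RefSeq start in GRCm38.p6, read 5′ to 3′ on the strand of the gene, and were chosen to span CpG-dense and CpG-poor starts among ligands that were higher in cKO hippocampi.
*Wnt9a*, chr11:59306680-59306929, plus strand: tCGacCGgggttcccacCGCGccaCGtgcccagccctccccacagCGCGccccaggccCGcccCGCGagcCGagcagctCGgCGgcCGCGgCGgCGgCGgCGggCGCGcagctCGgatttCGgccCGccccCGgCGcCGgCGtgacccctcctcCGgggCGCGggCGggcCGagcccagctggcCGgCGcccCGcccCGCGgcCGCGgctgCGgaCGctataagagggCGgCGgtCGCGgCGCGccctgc
*Wnt3a*, chr11:59290752-59291001, minus strand: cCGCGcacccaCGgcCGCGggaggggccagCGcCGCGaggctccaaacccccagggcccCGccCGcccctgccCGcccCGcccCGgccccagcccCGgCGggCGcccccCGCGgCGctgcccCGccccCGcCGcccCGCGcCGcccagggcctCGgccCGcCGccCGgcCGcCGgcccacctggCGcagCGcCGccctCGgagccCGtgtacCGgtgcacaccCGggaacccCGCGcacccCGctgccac
*Wnt5b*, chr6:119544348-119544597, minus strand: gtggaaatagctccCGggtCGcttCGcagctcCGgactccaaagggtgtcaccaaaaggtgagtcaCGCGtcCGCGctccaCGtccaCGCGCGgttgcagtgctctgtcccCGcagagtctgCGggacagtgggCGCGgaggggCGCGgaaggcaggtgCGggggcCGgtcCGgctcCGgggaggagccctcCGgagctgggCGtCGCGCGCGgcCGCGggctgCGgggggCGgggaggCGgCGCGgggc
*Wnt8b*, chr19:44493222-44493471, plus strand: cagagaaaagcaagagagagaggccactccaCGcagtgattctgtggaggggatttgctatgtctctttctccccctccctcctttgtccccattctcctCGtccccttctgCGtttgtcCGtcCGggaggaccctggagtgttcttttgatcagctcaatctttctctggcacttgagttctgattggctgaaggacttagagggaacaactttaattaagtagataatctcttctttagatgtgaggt
The motif counted was CG, which reads the same on both strands. The *Wnt9a* window held 48 of them, and 0.186% of the 32851 windows of the same length before annotated mouse starts held as many. The *Wnt3a* window held 41 (1.09% of windows) and the *Wnt5b* window 35 (2.97%), whereas the *Wnt8b* window held 5, a count reached by 55.6% of windows. This range follows from how the 4 windows were chosen, and the *Wnt5b* window shown had the most CpG of its annotated starts.

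RefSeq windows were found for 8 of the 10 ligands and not for *Wnt5a* and *Wnt7b*. Over all windows the median was 6 CpG. *Wnt4* had 44, *Wnt2b* 36, *Wnt7a* 34 and *Wnt3* 22, all above the upper quartile of 16, while *Wnt5b* had further annotated starts with 7 and 4. High counts were thus found before ligands that passed the call in hippocampi and before *Wnt4* and *Wnt7a*, which did not. In the gene coordinates deposited with the cortex libraries (GRCm38), *Wnt3a* (chr11:59248033-59290752, minus strand) and *Wnt9a* (chr11:59306928-59333552, plus strand) lie head to head with 16176 bases between their starts. *Wnt3* is at chr11:103774150-103817957 and *Wnt5b* and *Wnt7a* are at chr6:119432531-119544347 and chr6:91363981-91411363. The others are single on their chromosomes, *Wnt2b* at chr3:104945272-104961921, *Wnt4* at chr4:137277489-137299726, *Wnt5a* at chr14:28504750-28527448, *Wnt7b* at chr15:85535437-85582473 and *Wnt8b* at chr19:44493472-44514273. Values are for whole genes, summed over exons.

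**Figure D1:**
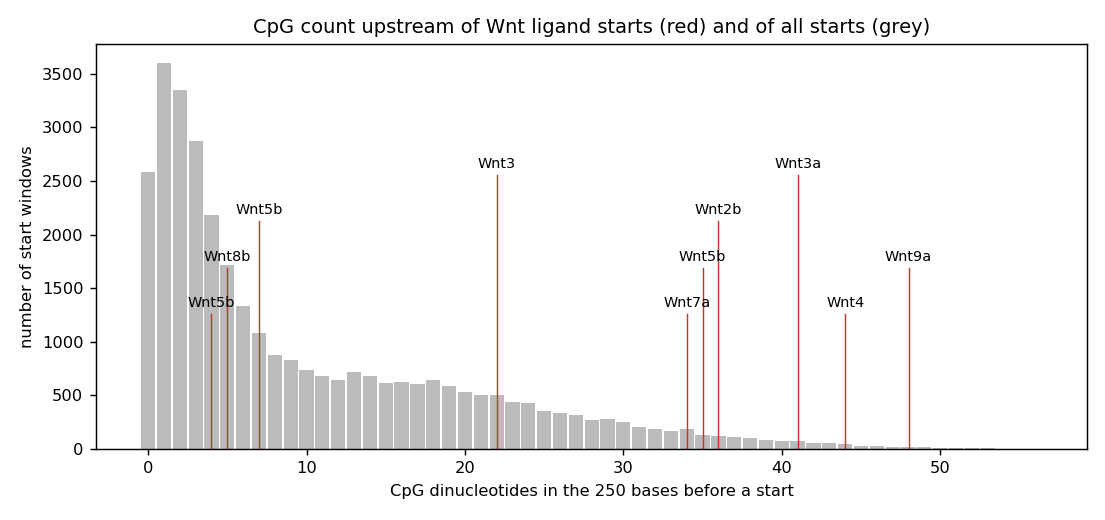
Number of CpG dinucleotides in the 250 bases before annotated gene starts (x axis) against the number of start windows (y axis, grey bars, 32851 windows), with the 10 windows of 8 Wnt ligands as red lines. *Wnt9a*, *Wnt4* and *Wnt3a* have 48, 44 and 41, and *Wnt8b* has 5, beside a median of 6.

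All levels below are FPKM, a fragment count scaled to transcript length and library size, which can be compared between genes because they are per length. The tables were normalized separately, so that levels set side by side across tissues are descriptive, and tests were made within a table or on the change between genotypes. In cortex and *Rnf2* libraries the values gave back whole reads, 14654894 to 21905224 per library, and depth is unknown for *Kdm2b* hippocampi and neurospheres. Neurosphere control 1 stood apart with a total of 855276 FPKM, 29.3% of it in entries with no gene name, against 452580 to 522964 in the other neurosphere libraries. *Zbtb20*, a hippocampal transcription factor, was at 36.9 to 49.8 FPKM in control hippocampi of the *Kdm2b* line, at 21.3 to 37.0 in those of the *Rnf2* line and at 4.68 to 5.96 in control cortices. Neurosphere controls had it at 2.24 to 2.96 and had the neuronal tubulin *Tubb3* at 21.5 to 22.8 FPKM, against 961 to 1079 in control hippocampi. *Kdm2b* was at 28.1 to 31.9 FPKM in control and 26.2 to 28.2 in cKO hippocampi over the whole gene, which does not separate the floxed exon. *Rnf2* was at 30.8 and 32.3 FPKM in its controls and at 27.8 and 28.5 in its cKO libraries, a log2 fold change of -0.16 (limma SE 0.10, adjusted p = 0.762), so that the gene-level value does not by itself check the *Rnf2* label.

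In control hippocampi of the *Kdm2b* line 3 ligands made up most of the summed level. *Wnt7b*, a canonical ligand of neurons that also serves brain vessels, was at 20.5, 20.1 and 20.8 FPKM. *Wnt5a*, the main non-canonical ligand, was at 13.9, 15.1 and 13.6 FPKM, and *Wnt7a*, the close relative of *Wnt7b*, was at 6.97, 6.55 and 6.52 FPKM. *Wnt4* followed at 2.75 to 3.06 FPKM. These 4 levels and their order did not overlap between neighbours. *Wnt8b* (1.08 to 2.44), *Wnt3* (1.44 to 1.75), *Wnt2b* (0.900 to 1.81) and *Wnt9a* (1.14 to 1.34 FPKM) came next. Their ranges overlapped, except that *Wnt3* lay above *Wnt9a*. *Wnt5b* (0.657 to 0.875) and *Wnt3a* (0.135 to 0.383 FPKM) were the lowest.

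The makeup differed between tissues. In control cortices *Wnt7b* was at 67.4 and 63.8 FPKM and gave 81.3% and 82.5% of the summed level of the 10 ligands, against 39.2% to 40.4% in control hippocampi. *Wnt5a* was at 1.36 and 0.872 FPKM in control cortices, and the 3 non-canonical ligands together gave 4.03% and 3.02% of the sum, against 33.0% to 37.2% in control hippocampi. Of the ligands associated with the hem, *Wnt3a* and *Wnt8b* were near 0 in cortex. *Wnt3a* had 2 reads in cortex control 1 and 0 in the other 3 cortex libraries, and *Wnt8b* had 8 and 0. In neurospheres *Wnt7b* (31.5 and 30.8 FPKM), *Wnt7a* (16.2 and 15.6) and *Wnt5a* (12.6 and 12.5) led in controls, and *Wnt3a* and *Wnt8b* were listed at 0 in all 4 neurosphere libraries.

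**Figure D2:**
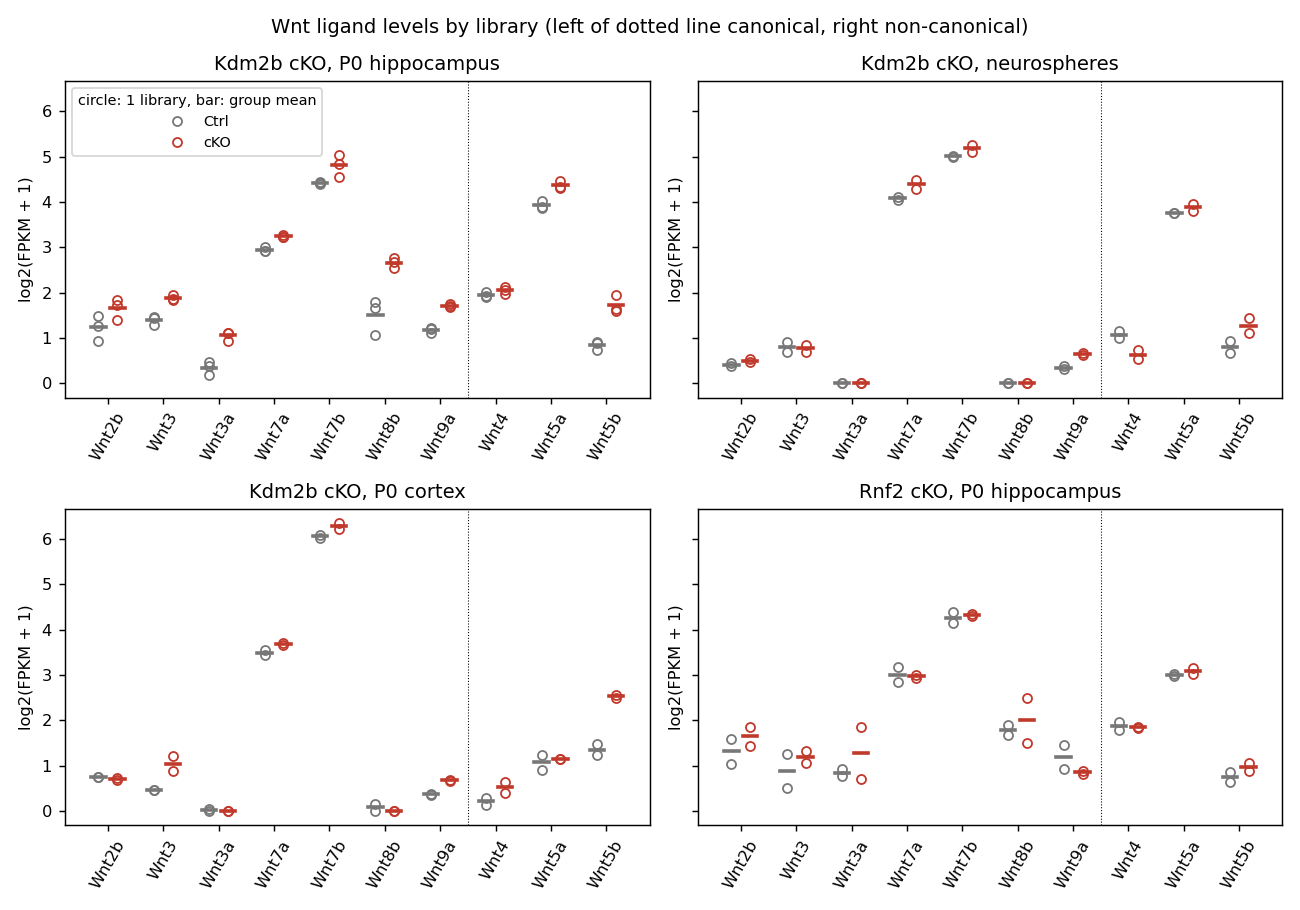
Level of each ligand as log2(FPKM + 1) (y axis) in each library, with a circle per library, a bar at the group mean, controls in grey and cKO in red, in the 4 tables. The cKO circles of 8 ligands lie above all controls in *Kdm2b* hippocampi, and *Wnt3a* and *Wnt8b* lie at 0 in neurospheres.

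The first question was which ligands differ between *Kdm2b* cKO and control hippocampi. Of the 10 ligands, 7 were higher, none was lower, and the estimates of all 10 were positive, from 0.10 to 1.16 on the log2(FPKM + 1) scale. By the call used here, which asks for an unadjusted limma p under 0.05 and a change of more than 0.4 on the log2 scale, 3.89% of the 13446 genes tested were higher and 2.25% lower. The median log2 fold change was 0.46 over the 10 ligands and 0.01 over all genes tested. With Benjamini-Hochberg adjusted p under 0.05 at the same fold, 6 ligands were higher, against 4.41% of all genes in either direction. The cKO libraries lay above all controls for 8 ligands, and groups did not overlap for 29.2% of all genes. Wnt ligands had been seen to rise in these data before they were chosen as a group, so these counts are descriptive.

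Among canonical ligands 5 of 7 were higher. *Wnt8b*, a ligand of the hem and dorsal midline, was at 2.44, 1.08 and 2.16 FPKM in controls and at 5.76, 5.40 and 4.86 in cKO hippocampi. Every cKO library lay well above the highest control. Its log2 fold change was 1.16 (standard error, SE, 0.18, limma adjusted p = 0.00674), and the mean rose 2.82-fold, from 1.89 ± 0.715 to 5.34 ± 0.453 FPKM (SD, n = 3 each). *Wnt3a*, the hem ligand required for hippocampal growth, was at 0.292, 0.135 and 0.383 FPKM in controls and at 1.16, 1.16 and 0.910 in cKO hippocampi. The groups were far apart, and the 3.99-fold ratio of the means was the largest of the 10. The log2(FPKM + 1) difference was 0.71 (SE 0.13, limma adjusted p = 0.0123), on a scale that understates changes of low genes. The control mean of 0.270 FPKM was under the filter of 0.5 FPKM, which *Wnt3a* passed only through its cKO libraries. Its call and p-value are therefore descriptive, and with a filter of 1 FPKM it was not tested.

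*Wnt9a*, the neighbour of *Wnt3a*, rose from 1.14, 1.30 and 1.34 FPKM to 2.21, 2.36 and 2.25 FPKM. No library of either group came near the other, and the log2 fold change was 0.54 (limma SE 0.10, adjusted p = 0.0149). *Wnt3*, a canonical ligand that also drives adult hippocampal neurogenesis with *Wnt3a*, rose from 1.75, 1.72 and 1.44 FPKM to 2.83, 2.57 and 2.61 FPKM, a log2 fold change of 0.48 (SE 0.10, limma adjusted p = 0.0237). Again the groups did not overlap. *Wnt2b* was at 1.41, 0.900 and 1.81 FPKM in controls and at 2.56, 2.28 and 1.63 in cKO hippocampi. Its cKO 3 lay below control 3, and its log2 fold change of 0.42 (limma SE 0.17, adjusted p = 0.175) passed the call but not the adjusted threshold. The call of *Wnt2b* was lost without control 1 (0.44), control 2 (0.27), cKO 1 (0.33) or cKO 2 (0.38).

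*Wnt7a* and *Wnt7b*, the most abundant canonical ligands, did not pass the call, and their groups did not overlap. *Wnt7a* was at 6.97, 6.55 and 6.52 FPKM in controls and at 8.39, 8.34 and 8.65 in cKO hippocampi, a log2 fold change of 0.30 (limma SE 0.071, adjusted p = 0.0351) that was under the fold threshold. *Wnt7b* was at 20.5, 20.1 and 20.8 FPKM in controls and at 31.8, 27.7 and 22.4 in cKO hippocampi. Its cKO libraries were spread widely, and its log2 fold change was 0.39 (SE 0.11, limma adjusted p = 0.0566). *Wnt7b* passed the call without cKO 3, at 0.52.

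Of the 3 non-canonical ligands 2 were higher. *Wnt5b*, which signals through ROR receptors and in limb cartilage, rose from 0.859, 0.875 and 0.657 FPKM to 2.87, 2.13 and 2.02 FPKM, a 2.94-fold ratio of the means. Its groups were far apart, with a log2 fold change of 0.89 (limma SE 0.13, adjusted p = 0.00595). *Wnt5a* rose from 13.9, 15.1 and 13.6 FPKM to 18.7, 19.2 and 20.9 FPKM, and its log2 fold change was 0.44 (SE 0.068, limma adjusted p = 0.00721). No cKO library of *Wnt5a* reached down to the controls. Without cKO 3 the log2 fold change of *Wnt5a* was 0.39, just under the fold threshold. *Wnt4*, a ligand of kidney and gonad development that is also made in brain, was at 3.06, 2.81 and 2.75 FPKM in controls and at 2.93, 3.18 and 3.38 in cKO hippocampi. These groups overlapped, and the interval of its log2 fold change of 0.10 ran from -0.11 to 0.32 (95%).

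**Figure D3:**
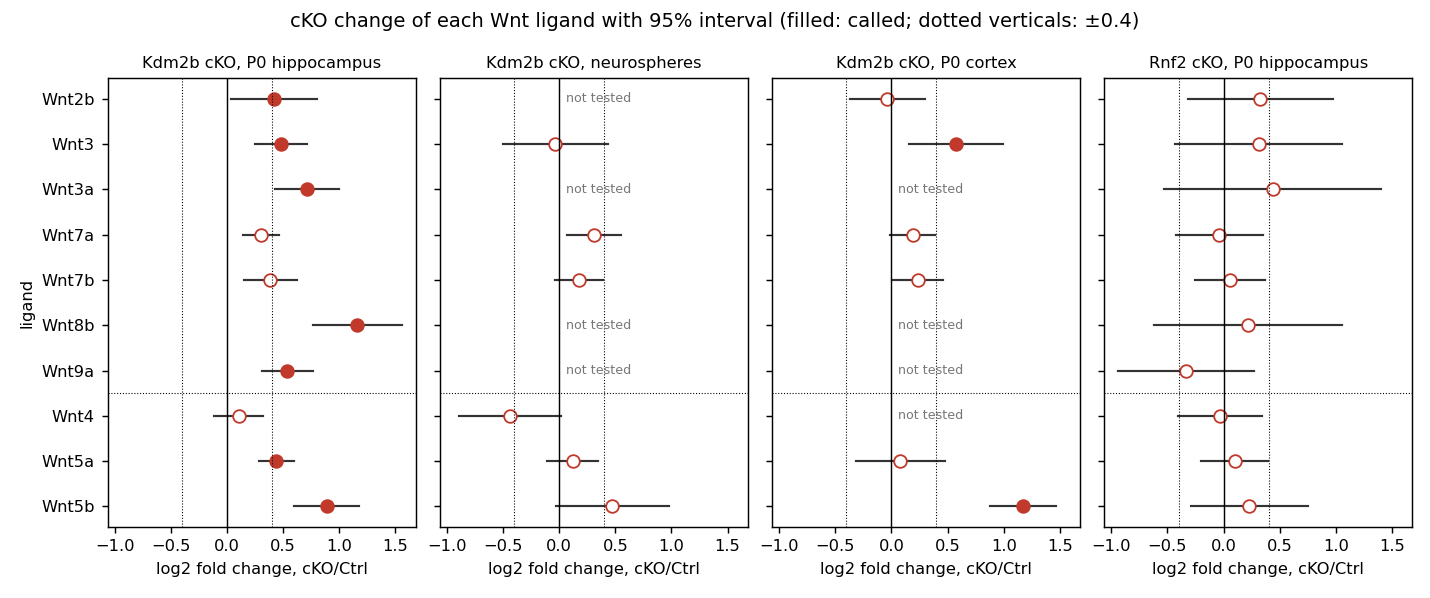
Log2 fold change of each ligand between cKO and control on the log2(FPKM + 1) scale (x axis), with its 95% interval, in 4 panels, 1 per table. Filled points passed the call, which are 7 ligands in *Kdm2b* hippocampi, 2 in cortices and none in the other panels, and ligands under the expression filter are marked as not tested.

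The summed level of the 10 ligands was 52.3, 50.6 and 51.4 FPKM in control hippocampi and 79.3, 74.3 and 69.6 FPKM in *Kdm2b* cKO hippocampi, a ratio of the means of 1.45. The sum of canonical ligands rose from 33.6 ± 1.52 to 49.3 ± 5.74 FPKM and that of non-canonical ligands from 17.9 ± 0.935 to 25.1 ± 1.05 FPKM (SD, n = 3 each). The share of non-canonical ligands overlapped between genotypes, at 33.0% to 37.2% in controls and 31.0% to 37.8% in cKO hippocampi. The 7 ligands other than *Wnt7b*, *Wnt7a* and *Wnt5a* together went from 8.82 to 10.9 FPKM in controls to 17.7 to 20.3 FPKM in cKO hippocampi. In whole tissue, more RNA per cell and more cells of a type that makes the ligand cannot be told apart.

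Markers of other cell groups moved in the same libraries. Of 8 cortical hem markers 4 were higher in cKO hippocampi and none was lower, and their summed level was 20.5 to 24.9 FPKM in controls and 28.7 to 38.9 FPKM in cKO hippocampi. *Lmx1a*, a transcription factor that defines the hem, was at 0.995 to 1.75 and 2.199 to 2.938 FPKM. Of 10 progenitor markers 5 were higher, with the defining marker *Pax6* at 5.24 to 5.82 and 8.97 to 11.8 FPKM, and of 8 neuron markers 2 were lower. Choroid plexus markers, 7 genes led by *Ttr*, summed to 61.6, 43.5 and 8.06 FPKM in cKO 1 to 3 and to 5.87 to 17.4 FPKM in controls. In cKO 3, whose choroid plexus sum was within the control range, *Wnt8b* (4.86 FPKM), *Wnt3a* (0.910) and *Wnt5b* (2.02) were above every control, whereas *Wnt2b* (1.63) was below control 3 (1.81). *Wnt2b* had the same order as the choroid plexus sum over all 6 libraries, from 0.900 FPKM at a sum of 5.87 to 2.56 FPKM at a sum of 61.6. The order was not shared in the *Rnf2* hippocampi, where *Wnt2b* was at 2.59, 2.02, 1.05 and 1.71 FPKM at sums of 8.96, 13.4, 51.7 and 245. The part of choroid plexus in the *Wnt2b* values was not tested. The 7 meninges markers summed to 36.5 to 50.1 FPKM in controls and 29.7 to 47.8 in cKO hippocampi, and none of them was called. The 4 thalamus markers, genes of a neighbouring tissue, summed to 25.1 to 29.5 FPKM in controls and 36.4 to 38.9 in cKO hippocampi, with the defining marker *Gbx2* at 0.027 to 0.058 and 0.143 to 0.372 FPKM. The part of hem, progenitor and thalamic cells in the ligand values was not tested.

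**Figure D4:**
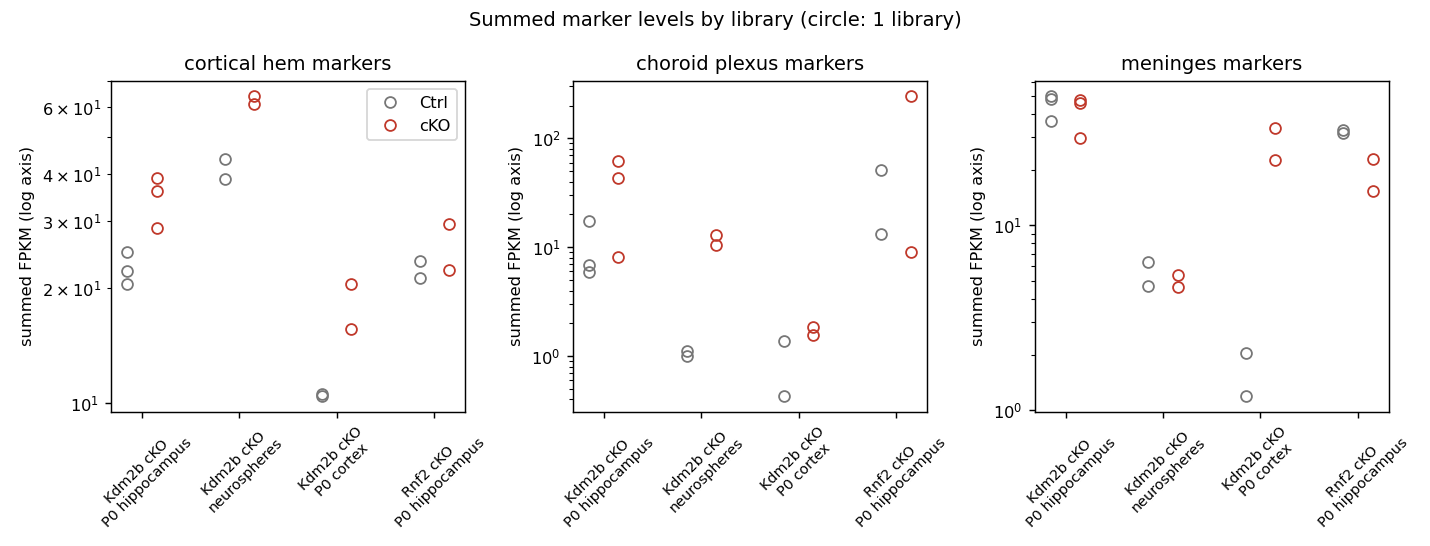
Summed FPKM (log axis) of 8 cortical hem, 7 choroid plexus and 7 meninges markers in each library, with controls in grey and cKO in red. Hem sums are higher in cKO libraries of the 3 *Kdm2b* tables, although the defining hem marker *Lmx1a* overlaps between the groups in cortices. In neurospheres *Lmx1a* is at most 0.021 FPKM and most of the hem sum is *Bmp7*. Meninges sums are 22.5 and 33.6 FPKM in cortex cKO libraries against 1.19 and 2.04 in their controls.

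Other genes of the pathway were taken from lists written from general knowledge. The 9 other Wnt ligands, *Wnt1* and *Wnt6* among them, were below the filter in all 4 tables, and their summed level was 0.624 to 1.45 FPKM in control and 1.22 to 1.89 FPKM in *Kdm2b* cKO hippocampi. Of 7 tested genes for ligand secretion and release, *Notum*, an extracellular enzyme that inactivates Wnt ligands and is itself a Wnt target, was higher (log2 fold change 0.92, adjusted p = 0.00356 from limma). *Porcn*, the acyltransferase that adds the lipid to every ligand, was at 28.9 to 36.1 FPKM in controls and 32.6 to 34.1 in cKO hippocampi. Thus 1 of the 7 passed the call, and the median of the list was -0.01.

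Among the 11 tested Frizzled and LRP receptors 3 were higher, *Fzd2* (0.85), *Fzd10* (0.78) and *Fzd9* (0.64), and none was lower, with a list median of 0.26. Of 10 non-canonical receptors and polarity genes 3 were higher, *Celsr1* (0.82), *Ror2* (0.56) and *Ptk7* (0.47), with a median of 0.05. Of 10 tested targets and feedback genes 5 were higher and none lower, with the largest log2 fold changes for *Lef1* (1.19), *Sp5* (0.65) and *Axin2* (0.55, read from an entry shared with *Cep112*) and a median of 0.41. The 6 secreted antagonists tested had a median of 0.22, with *Sfrp2* (1.06) and *Sfrp1* (0.53) higher and *Frzb* (-0.49) lower. Receptors of both branches and targets of the canonical branch thus included called genes in the hippocampi where the ligands were higher.

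In neurospheres, which are cultures of progenitors, no ligand passed the call. Of the 6 ligands tested 4 had positive and 2 had negative estimates, with a median of 0.15 against -0.01 over all genes, while 11.4% of the 12227 genes tested were higher and 13.2% lower in cKO neurospheres. With adjusted p values the background was 19.3% and no ligand passed with limma. An unadjusted p under 0.05 was found for 4669 of the 12227 genes and for 1 of the 6 ligands. *Wnt7a*, that ligand, was at 16.2 and 15.6 FPKM in controls and at 18.6 and 21.3 in cKO neurospheres. Its log2 fold change was 0.31 (limma SE 0.096, adjusted p = 0.0698), close to the estimate in hippocampi, and the interval of the difference between both ran from -0.25 to 0.23. *Wnt7b* was at 31.5 and 30.8 FPKM in controls and at 33.5 and 37.2 in cKO neurospheres, and *Wnt5a* was at 12.6 and 12.5 and at 14.5 and 13.02. These 3 ligands were above their controls in both cKO cultures, as were *Wnt5b*, *Wnt9a* and *Wnt2b*, and groups did not overlap for 66.4% of all genes in this table.

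*Wnt5b* was at 0.587 and 0.908 FPKM in neurosphere controls and at 1.15 and 1.71 in cKO, a log2 fold change of 0.47 (limma SE 0.20, adjusted p = 0.150). *Wnt9a*, under the filter, was at 0.242 and 0.297 FPKM in controls and at 0.583 and 0.549 in cKO. *Wnt4* went the other way, from 1.21 and 0.999 FPKM to 0.446 and 0.657 FPKM, a log2 fold change of -0.44 (SE 0.18, limma adjusted p = 0.140). *Wnt4* was thus the 1 ligand whose neurosphere cKO libraries both lay below their controls. *Wnt3* overlapped between groups, at 0.876 and 0.616 FPKM and at 0.617 and 0.786 FPKM.

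The cKO change was compared between hippocampi and neurospheres as an interaction of genotype and table with limma. It differed for *Wnt4*, by 0.54 on the log2 scale (SE 0.17, limma adjusted p = 0.0316), and for *Wnt3*, by 0.51 (SE 0.18, limma adjusted p = 0.0498), with the larger value in hippocampi for both. For *Wnt5a* the difference was 0.32 (adjusted p = 0.0517). Among the 6 ligands tested 2 passed, and 26.9% of all 11075 genes did, so the share among ligands was near that of all genes. Without neurosphere control 1, the library that stood apart, neither passed, at 0.47 for *Wnt4* and 0.41 for *Wnt3*. The call of *Wnt3* was also lost without any other of these libraries except neurosphere control 2, at 0.44 to 0.59, and that of *Wnt4* without hippocampal control 2 or 3, hippocampal cKO 2 or 3, or neurosphere cKO 1, at 0.45 to 0.54.

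Of 7 secretion genes tested in neurospheres 2 fell and *Notum* (1.31) rose, with a list median of 0.11. *Wls*, the carrier that takes Wnt ligands to the cell surface, fell from 25.5 ± 1.86 to 10.4 ± 0.205 FPKM (mean ± SD of 2 and 2 libraries), which is -1.21 on the log2 scale (limma SE 0.091, adjusted p = 0.00163), and *Porcn* fell by 0.49 on the log2 scale (adjusted p = 0.0238). Of 11 targets and feedback genes 7 were higher (list median 0.65), with *Lef1* (1.19), *Sp5* (1.04) and *Tcf7* (1.03) leading, and *Rnf43* (-1.02), a ligase that removes Frizzled receptors, was lower. *Lef1*, *Sp5* and *Notum* had control means under the filter of 0.5 FPKM, at 0.393, 0.375 and 0.430, and passed it only through cKO libraries. In the receptor list *Fzd10* (1.26) and *Lrp5* (0.96) were higher and *Fzd9* (-1.05) and *Fzd7* (-0.41) lower, and the median was -0.07. Of 4 secreted antagonists tested *Sfrp2* (1.19) and *Sfrp4* (0.86) were higher and *Frzb* (-0.85) and *Sfrp1* (-0.50) lower. Pathway genes other than the ligands therefore moved in both directions in neurospheres. Hem markers summed to 38.7 and 43.8 FPKM in neurosphere controls and 60.9 and 64.0 in cKO. Most of that sum was *Bmp7*, at a mean of 37.9 FPKM in controls and 56.6 in cKO, and *Lmx1a* was at 0 in controls and at most 0.021 in cKO. Choroid plexus markers summed to 1.00 and 1.11 FPKM in neurosphere controls and to 10.49 and 12.96 FPKM in cKO. Most of the cKO sum was the 1 gene *Otx2*, at a mean of 0.041 FPKM in controls and 9.68 in cKO. *Ttr* was at 0 to 0.250 and 0 to 3.06 FPKM and was not called. Whether hem or choroid plexus cells were present was not tested.

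In cortices 2 of the 6 ligands tested were higher in *Kdm2b* cKO and none was lower, where 4.73% of the 15691 genes tested were higher and 2.28% lower. *Wnt5b* was at 1.76 and 1.36 FPKM in controls and at 4.91 and 4.61 in cKO cortices, which corresponds to 103 and 77 against 256 and 229 reads. The groups were far apart, with a 3.05-fold ratio of the means and a log2 fold change of 1.17 (limma SE 0.11, adjusted p = 0.0428). *Wnt5b* was the 1 ligand past an adjusted p of 0.05 in cortices, where 0.427% of all genes were. *Wnt3* was at 0.384 and 0.382 FPKM in controls and at 0.844 and 1.30 in cKO cortices, or 26 and 25 against 51 and 75 reads. Its log2 fold change was 0.58 (SE 0.16, limma adjusted p = 0.260), and the call was lost without control 1 (0.58), control 2 (0.58) or cKO 2 (0.42). With limma-voom on the reads, the change of *Wnt3* was 1.43 (adjusted p = 0.0666). Its control mean of 0.383 FPKM was under the filter of 0.5 FPKM, which *Wnt3* passed only through its cKO libraries, so its call is descriptive.

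The abundant ligands had smaller estimates in cortex. *Wnt7b* was at 67.4 and 63.8 FPKM in controls and at 80.6 and 74.1 in cKO, or 0.23 on the log2 scale (limma adjusted p = 0.373), and *Wnt7a* was at 10.7 and 9.85 and at 11.98 and 11.72, with 0.19 (adjusted p = 0.418). Both lay above their controls in each cKO library and did not reach the fold threshold. *Wnt5a* overlapped between the groups, at 1.36 and 0.872 FPKM and at 1.22 in both cKO libraries, and *Wnt2b* was at 0.670 and 0.683 FPKM in controls and at 0.606 and 0.662 in cKO. Groups did not overlap for 5 of the 6 ligands tested, 4 above and 1 below, and for 44.8% of all genes. With the higher *Wnt5b*, the share of non-canonical ligands went from 4.03% and 3.02% in controls to 6.60% and 6.51% in cKO cortices.

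The 4 ligands under the filter in cortex had few reads. *Wnt9a* had 21 and 20 reads in controls and 40 and 36 in cKO, and *Wnt4* had 20 and 9 against 46 and 25. Both were above their controls in each cKO library, with log2 fold changes of 1.05 (SE 0.33, limma adjusted p = 0.270) for *Wnt9a* and 1.48 (SE 0.49, limma adjusted p = 0.296) for *Wnt4* from limma-voom on the reads without a filter, an analysis added after the values were seen. *Wnt3a* and *Wnt8b* had no read in either cKO library, so that the rises seen for them in hippocampi had no counterpart that could be detected at this depth.

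Cortex cKO libraries also had more RNA of meningeal genes. All 7 meninges markers were higher, and their sum was 1.19 and 2.04 FPKM in controls and 33.6 and 22.5 FPKM in cKO cortices. *Col1a1*, which defines the list, was at 0.104 to 0.323 and 2.43 to 5.29 FPKM. Control means of all 7 were under the filter of 0.5 FPKM, from 0.057 for *Slc6a13* to 0.392 for *Foxc1*. They passed it only through cKO libraries, which favours a count of higher genes, so this count is descriptive. Of 6 endothelial markers 3 were higher, with *Cldn5* at 23.9 to 25.6 and 39.8 to 40.9 FPKM. Of 5 blood markers 3 were higher, with sums of 435 and 454 FPKM in controls and 711 and 623 in cKO cortices. Among the 5 cortical hem markers tested 3 were higher, *Bmp7*, *Bmp6* and *Msx1*, while *Rspo2* and *Rspo3* had negative estimates. *Bmp6* and *Msx1* also passed the filter only through cKO libraries. The defining hem marker *Lmx1a* overlapped between groups, at 0.014 to 0.227 FPKM in controls and 0.079 to 0.165 in cKO. The part of these cell types in the cortical values of *Wnt5b*, *Wnt3*, *Wnt4* and *Wnt9a* was not tested.

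No ligand's cKO change passed as different between hippocampi and cortices. Of the 6 ligands tested, 0 had an adjusted p under 0.05 with limma, while 1.61% of all 10708 genes passed. An unadjusted p under 0.05 was found for 1 of the ligands, *Wnt5a*, and for 1505 of the 10708 genes. The difference of *Wnt5a* was 0.36 (95% interval 0.047 to 0.68, adjusted p = 0.286), with a larger change in hippocampi. For *Wnt5b* it was -0.29 (-0.69 to 0.12) and for *Wnt3* -0.10 (-0.47 to 0.27), with the larger estimates in cortices. Both intervals include 0. Ratios of the means in hippocampi and cortices were 2.94 and 3.05 for *Wnt5b* and 1.63 and 2.80 for *Wnt3*. Differences on the log2(FPKM + 1) scale thus depend on the base level as well as on the change. Among other pathway genes in cortices, both coreceptors that *Wnt7a* and *Wnt7b* use on brain vessels were higher, *Adgra2* (0.78, adjusted p = 0.0929) and *Reck* (0.53, adjusted p = 0.156). *Tcf7* (0.89), *Nkd2* (0.69) and *Nkd1* (0.53) led the 4 of 7 targets that were higher (list median 0.42). *Wls* was higher (0.59) and *Porcn* lower (-0.45). The limma adjusted p of these named genes ran from 0.0648 for *Tcf7* to 0.190 for *Nkd1*. Of 4 secreted antagonists tested 3 were higher, *Sfrp2* (0.94), *Sfrp1* (0.52) and *Dkk2* (0.48), with limma adjusted p of 0.0575 to 0.265. *Dkk2* had a control mean of 0.306 FPKM, under the filter. The part of meningeal, endothelial and blood cells in the values of these pathway genes was not tested.

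In *Rnf2* cKO hippocampi no ligand was higher or lower by the call with limma or with limma-voom, and none of the 10 had an unadjusted p under 0.05. By the same rule 2.86% of 15764 genes were higher and 1.85% lower, and 0% passed the adjusted threshold, where 1121 genes had an unadjusted p under 0.05. The median log2 fold change of the ligands was 0.16, with 7 positive and 3 negative, against -0.00024 over all genes. The 95% interval of *Wnt5a* ran from -0.20 to 0.39 and that of *Wnt7b* from -0.26 to 0.37, both ending under the fold threshold of 0.4. For *Wnt3a* it ran from -0.53 to 1.40, so that a change as large as in the *Kdm2b* line lay within it. Groups did not overlap for 3 ligands, with *Wnt5a* and *Wnt5b* above and *Wnt9a* below, and for 38.3% of all genes.

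*Wnt7b* also led in hippocampi of the *Rnf2* line. It was at 20.0 and 16.7 FPKM in controls and at 19.3 and 18.8 in cKO, *Wnt7a* at 8.07 and 6.14 and at 6.64 and 7.01, and *Wnt4* at 2.92 and 2.42 and at 2.60 and 2.56. In each the cKO libraries lay within the range of the controls. *Wnt5a* was at 7.07 and 6.81 FPKM in controls and at 7.17 and 7.83 in cKO, and *Wnt5b* at 0.806 and 0.557 and at 0.844 and 1.09, with both cKO libraries above the controls by small margins. *Wnt2b* was at 1.05 and 2.02 FPKM in controls and at 1.71 and 2.59 in cKO, and the groups overlapped. Of the pathway lists *Porcn* (0.43), *Ror2* (0.54), *Sfrp2* (0.56) and *Nkd1* (0.49) were higher by the call, with adjusted p of 0.590 to 0.691 from limma, and 0 of the 11 receptors tested passed. The 7 meninges markers included 4 that were lower, with sums of 31.7 and 32.6 FPKM in controls and 15.4 and 23.0 in cKO, and their part in the values was not tested.

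Libraries of the *Rnf2* table were unequal for several ligands. *Wnt3a* was at 0.702 and 0.885 FPKM in *Rnf2* controls and at 0.636 and 2.60 in cKO, and *Wnt8b* was at 2.197 and 2.704 and at 1.83 and 4.65. Library cKO 2 was high for both, at 116 and 254 reads against 29 and 102 in cKO 1. Without cKO 1 both passed the call, at 1.006 and 0.72, and without cKO 2 their estimates were -0.13 and -0.28. In the same library the hem markers summed to 29.4 FPKM, against 21.2 to 23.6 in the other 3, whereas choroid plexus markers summed to 8.96 FPKM there and to 245 in cKO 1. *Wnt3* varied between controls, at 1.37 and 0.418 FPKM, and was at 1.51 and 1.06 in cKO. *Wnt3* passed the call without control 1, at 0.68, and was at -0.06 without control 2. *Wnt9a* was at 1.73 and 0.888 FPKM in controls and at 0.836 and 0.761 in cKO, and without control 2 it passed the call as lower, at -0.60.

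Set side by side, the ligands changed by 0.10 to 1.16 in *Kdm2b* and by -0.34 to 0.44 in *Rnf2* cKO hippocampi. The difference between the lines had an unadjusted p under 0.05 with limma for 5 of the 10 and for 1749 of all 11266 genes. An adjusted p under 0.05 was reached by 0 of the 10 and by 0.683% of all genes. The difference was 0.94 for *Wnt8b* (95% interval 0.14 to 1.75, adjusted p = 0.246), 0.87 for *Wnt9a* (0.41 to 1.34, adjusted p = 0.0853) and 0.66 for *Wnt5b* (0.20 to 1.11, adjusted p = 0.159). The value of *Wnt8b* rested on the *Rnf2* cKO libraries, at 0.45 without cKO 1 and 1.44 without cKO 2. All 10 differences were positive, with larger estimates in the *Kdm2b* line. Because the ligands had been seen to rise in these data before they were chosen, this tally is descriptive. Without *Rnf2* control 2, *Wnt9a* (1.14) and *Wnt7a* (0.51) passed. The lines differ in their tables as well as in the deleted gene, and line and table cannot be told apart.

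**Figure D5:**
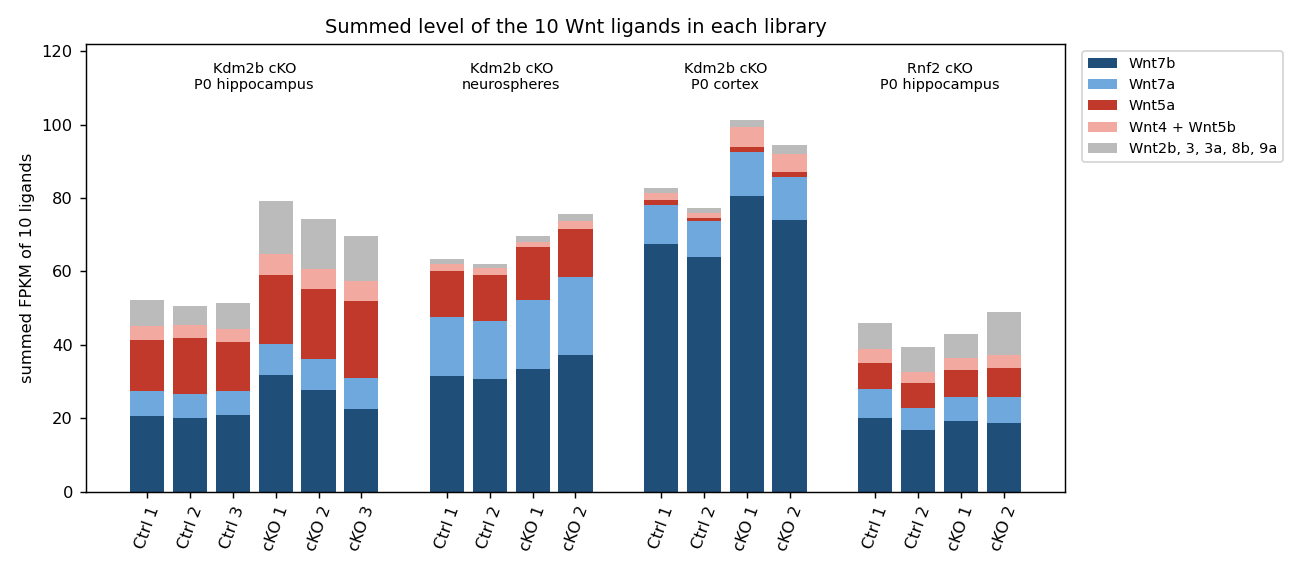
Summed FPKM of the 10 ligands (y axis) in each of the 18 libraries, with stacked parts for *Wnt7b*, *Wnt7a*, *Wnt5a*, *Wnt4* with *Wnt5b*, and the other 5 ligands, on an axis that starts at 0. In *Kdm2b* hippocampi cKO bars reach 69.6 to 79.3 against 50.6 to 52.3 in controls, *Wnt7b* makes up most of each cortex bar, and the *Rnf2* bars of both genotypes lie between 39.5 and 49.0.

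Across tissues the ligands fell into patterns by level and change. *Wnt5b* had positive estimates in all 4 tables, 0.89, 0.47, 1.17 and 0.23 in *Kdm2b* hippocampi, neurospheres, cortices and *Rnf2* hippocampi, and its cKO libraries lay above all controls in each. *Wnt5a* did so with smaller estimates in *Kdm2b* hippocampi, neurospheres and *Rnf2* hippocampi (0.44, 0.12 and 0.10) but overlapped in cortices (0.08). Groups did not overlap for 29.2%, 66.4%, 44.8% and 38.3% of all genes in these 4 tables, in the order given for *Wnt5b*. In *Rnf2* hippocampi the lowest *Wnt5b* value in cKO was 0.844 FPKM and the highest in controls was 0.806. *Wnt8b* and *Wnt3a* were detected in hippocampi and were at or near 0 in neurospheres and cortices of both genotypes. *Wnt9a* was above its controls in all 3 *Kdm2b* tables, with ratios of the means of 1.81, 2.10 and 2.09. It was under the filter in neurospheres and cortices, which gave the last 2 ratios. In the *Rnf2* table it was below its controls, at 0.611.

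For the 5 ligands tested in all 4 tables, the genes with the most similar profile over the 18 libraries were sought among 9604 genes, after centring each table on its mean. The libraries share genotype groups, so the correlations describe these libraries and carry no test. For *Wnt5b* they were *Tyro3*, *Mxra7* and *Pth1r* (Pearson's r 0.94, 0.94 and 0.93), for *Wnt7a* *Tspan33*, *Arpc1b* and *Uap1l1* (0.94, 0.91 and 0.91), and for *Wnt7b* *Spats2*, *Pax6* and *Ntn4* (0.88, 0.88 and 0.86). For *Wnt3* they were *Dcxr*, *Ssbp4* and *Kdelr3* (0.90, 0.85 and 0.84), and for *Wnt5a* *Plcd1*, *Aif1l* and *Zic5* (0.88, 0.85 and 0.85). Among the ligands themselves *Wnt5b* and *Wnt7b* were the closest pair at 0.83, and *Wnt3* and *Wnt5a* the least alike at 0.54.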

How the data were processed

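RNA-seq libraries of P0 hippocampi, neurospheres and cortices were deposited by the authors as FPKM in 4 tables. The submitters' processing notes name cutadapt, STAR, Cufflinks 2.2.1 and DESeq2, and which of them made which table is not given in the sources used here. From these values, limma 3.58.1 in R 4.3.3 was fitted (eBayes with a trend) on log2(FPKM + 1) for named genes whose mean reached 0.5 FPKM, and the call asked for an unadjusted p under 0.05 and a change of more than 0.4 in either direction. Fold changes on this scale understate changes of low genes. The filter took the mean over both groups, so that a gene low in controls could pass it through cKO libraries alone. Adjusted p values are Benjamini-Hochberg over all genes tested, and interaction fits compared changes between tables. In cortex and *Rnf2* tables FPKM times length gave whole reads (100% of low values within 0.05 of a whole number), which entered limma-voom as an alternative, while depth is unknown elsewhere. Scripts were tested on simulated data. All 10 ligands are named, with up to 3 rises and 3 falls per other list and the 3 most similar genes per ligand. Members and lists were chosen with earlier results of these data known. Where 1 of 2 libraries was left out, the lone library was assumed to vary like the other group. The labels do not say whether replicate numbers pair the samples. Same-numbered deviations correlated at 0.05, -0.10 and -0.09 in *Kdm2b* hippocampi, -0.28 in neurospheres, -0.05 in cortices and 0.16 in *Rnf2* hippocampi. With so few libraries these values cannot exclude shared litters or batches.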

Additional observations from a re-analysis of the deposited data

Results flagged for a closer look

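The cKO change of *Wnt4* differed between *Kdm2b* hippocampi and neurospheres by 0.54 on the log2 scale, with 0.10 in hippocampi and -0.44 in neurospheres, by the interaction of genotype and table in limma (adjusted p = 0.0316). The change of *Wnt3* differed by 0.51, with 0.48 in hippocampi and -0.04 in neurospheres (adjusted p = 0.0498). Neither difference had an adjusted p under 0.05 without neurosphere control 1, the library with 29.3% of its FPKM in entries with no gene name, where they were 0.47 and 0.41, and 26.9% of all genes tested differed by the same rule.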

How the results depend on the processing

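In *Kdm2b* hippocampi 6 to 9 ligands were higher under every alternative run, with 6 to 7 when 1 library was left out, and the estimates of all 10 stayed positive. In neurospheres 1 ligand was higher, in place of 0, without the filter, without the trend or without the fold threshold, and 1 was lower without the filter or the trend, and leaving out a library gave 0 to 1 in each direction. In cortices 1 was higher, in place of 2, with a filter of 1 FPKM or an adjusted p, 4 with limma-voom without a filter (chosen after seeing the data), and 1 to 2 with a library left out. In *Rnf2* hippocampi leaving out a library gave 0 to 2 higher and 0 to 1 lower. The count that differed between hippocampi and neurospheres, 2, became 1 with a pseudocount of 0.1 or median-ratio scaling, 0 with a filter of 1 FPKM or the same FPKM total, and 0 to 2 with a library left out. Between hippocampi and cortices 1 ligand differed without the filter, and between the *Kdm2b* and *Rnf2* lines 0 to 2 with a library left out. The cause was not tested for any of these.

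With the replicate number as a block, 6 ligands were higher in *Kdm2b* hippocampi, with *Wnt2b* lost, and 0 differed between hippocampi and neurospheres. Whether the numbers pair the samples is not known. Crossing the neurosphere numbers, an alternative added after seeing the data, left 0 ligands called.

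Some small estimates changed sign. In neurospheres *Wnt3* was at 0.019 with the same FPKM total and at -0.14 to 0.073 with a library left out, and in cortices *Wnt5a* was at -0.090 to 0.25 with a library left out. In *Rnf2* hippocampi, with a library left out, *Wnt3* ranged from -0.056 to 0.68, *Wnt3a* from -0.13 to 1.006, *Wnt4* from -0.13 to 0.066, *Wnt7a* from -0.21 to 0.13, *Wnt7b* from -0.065 to 0.18 and *Wnt8b* from -0.28 to 0.72. The difference of *Wnt3* between hippocampi and cortices ranged from -0.26 to 0.064 with a library left out and was -0.58 with a pseudocount of 0.1. That of *Wnt7a* between hippocampi and neurospheres was 0.012 with a pseudocount of 0.1 and ranged from -0.10 to 0.082 with a library left out. Between the *Kdm2b* and *Rnf2* lines, with a library left out, *Wnt2b* ranged from -0.19 to 0.37, *Wnt3* from -0.21 to 0.53 and *Wnt3a* from -0.29 to 0.84, and *Wnt3a* was at 1.06 with a pseudocount of 0.1. In *Kdm2b* hippocampi that pseudocount put *Wnt3a* (1.72) above *Wnt8b* (1.52). Depth limits *Wnt3a* and *Wnt8b* in cortices, with at most 8 reads in a library.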
